A study of Mus musculus with 18 samples.

Results

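The TNF superfamily ligand genes Tnf, Lta, Ltb, Tnfsf9, Tnfsf10, Tnfsf11, Tnfsf13b, Tnfsf14, Tnfsf15 and Cd70 were examined for 2 histone marks in macrophages. The 10 genes are a fixed list, taken by symbol from GENCODE vM21 on the mm10 mouse genome, out of 55413 annotated genes, 21938 of them protein-coding. For each gene, every peak of H3K27me3 and H3K27ac was listed in a window that took in the gene body, the 5 kb before its start and the 1 kb after its end. The windows were between 7.88 kb (Ltb) and 38.6 kb (Tnfsf13b) long.

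The cells were bone marrow-derived macrophages (BMDM), primary cells cultured out of mouse marrow with a macrophage growth factor, and they were labelled untreated. Per the methods of the study the mice were male. WT BMDM came from mice labelled C57BL6, mdx BMDM from the strain labelled Dmdmdx-4Cv, which carries a mutation in the dystrophin gene, and mdxTLR4-/- BMDM from mice labelled Bl6/Bl10 that carry the dystrophin mutation and also lack TLR4, the receptor for bacterial lipopolysaccharide. Each genotype had 2 ChIP and 2 input samples for H3K27me3. For H3K27ac, WT and mdx BMDM had 2 ChIP samples each, mdxTLR4-/- BMDM had 1, and the 1 input sample was of no stated genotype. The labelled age rose by 1 week from sample to sample, from 12 to 17 weeks over the H3K27me3 ChIP libraries and from 19 to 23 weeks over the H3K27ac ones, while the H3K27me3 inputs of the same genotypes were labelled 6 to 11 weeks. Whether these are ages at harvest is not given in the sources used here, and as labelled, age and strain cannot be told apart from genotype. Because the authors merged the replicates before calling peaks, each mark has 1 list per genotype, no spread between mice can be had, and the genotypes were compared without a p-value.

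TNF superfamily ligands are mostly trimeric proteins of the cell surface that are also shed, and they signal through TNF receptors on neighbouring cells to steer inflammation, cell death and the build-up of lymphoid tissue. H3K27me3, trimethylation of lysine 27 of histone H3, is laid down by the Polycomb complex PRC2 over genes that are held silent. H3K27ac, acetylation of the same lysine, lies over active promoters and enhancers, and a single histone tail cannot carry both. Macrophages are a chief source of TNF, whereas lymphotoxins, CD70 and RANKL are better known as products of lymphocytes or stromal cells.

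The peaks below lie over the gene starts or away from them, and the promoters of 4 genes are shown because they differ in the mark that covers them. H3K27ac covered the Tnf and Tnfsf10 starts in some genotypes. H3K27me3 covered the Ltb start in WT and mdx BMDM and the Tnfsf11 start in every genotype. Of the 10 genes, 8 had a promoter in the RefSeq table used (GRCm38.p6), and Tnfsf9 and Cd70 had none. The sequences are written 5′ to 3′ on the strand of the gene and end at the base before the gene start. They are Tnf at chr17:35202008-35202257 (minus strand), Ltb at chr17:35194257-35194438 (plus strand), Tnfsf10 at chr3:27316827-27317027 (plus strand) and Tnfsf11 at chr14:78308044-78308293 (minus strand). Capitals mark matches, on either strand, to a TATA box (TATAAA), an AP-1 site (TGANTCA), an ETS site of the form that the macrophage factor PU.1 binds (GAGGAA), a GC box (GGGCGG) or an NF-kappaB site.
Tnf: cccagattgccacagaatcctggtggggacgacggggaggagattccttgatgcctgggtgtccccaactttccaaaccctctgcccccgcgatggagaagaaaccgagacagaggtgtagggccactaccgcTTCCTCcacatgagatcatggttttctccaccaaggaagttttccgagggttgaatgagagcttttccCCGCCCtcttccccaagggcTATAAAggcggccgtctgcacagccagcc
Ltb: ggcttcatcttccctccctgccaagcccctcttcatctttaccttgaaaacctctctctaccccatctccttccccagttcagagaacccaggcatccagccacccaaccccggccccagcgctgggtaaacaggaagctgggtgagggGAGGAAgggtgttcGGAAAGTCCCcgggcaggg
Tnfsf10: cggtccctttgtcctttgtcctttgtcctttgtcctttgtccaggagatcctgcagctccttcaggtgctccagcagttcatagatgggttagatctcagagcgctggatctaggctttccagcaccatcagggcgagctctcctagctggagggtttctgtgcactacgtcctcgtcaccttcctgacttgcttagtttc
Tnfsf11: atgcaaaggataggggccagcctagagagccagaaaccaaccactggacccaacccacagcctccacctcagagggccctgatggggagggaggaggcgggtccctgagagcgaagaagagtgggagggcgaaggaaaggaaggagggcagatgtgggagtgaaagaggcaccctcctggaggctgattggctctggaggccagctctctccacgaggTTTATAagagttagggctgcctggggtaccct

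The Tnf promoter held a TATA box from base -29 to -24, a GC box on the opposite strand from -49 to -44 and an ETS site on the opposite strand from -117 to -112, counted from the RefSeq start. The Ltb promoter held an ETS site from -101 to -96 and an NF-kappaB site on the opposite strand from -87 to -78, also from the RefSeq start. That start lies 68 bp inside the gene at Ltb and 49 bp inside it at Tnfsf10, so their printed sequences end before it. The Tnfsf11 promoter held a TATA box on the opposite strand from -32 to -27, and none of the 5 motifs was found in the Tnfsf10 promoter. Among 32851 promoters of 250 bases, 12.4% held the TATA box, 6.75% the AP-1 site, 23.3% the ETS site, 32.7% the GC box and 7.25% the NF-kappaB site. Of the promoters not printed, Lta held a TATA box at -167 to -162, Tnfsf14 held an AP-1 site at -160 to -154 and an ETS site at -59 to -54, and Tnfsf13b and Tnfsf15 held no match. These are matches of letters, and binding was not measured.

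The study also designed a pair of ChIP-qPCR primers for the Tnf promoter, which are shown because their product can be placed against the peaks.
Tnf forward primer: gaggctccgtggaaaactca
Tnf reverse primer: ggacctcacaagccttctcc
The primers matched chr17:35202738-35202757 and chr17:35202667-35202686, and the product spanned 91 bp from 750 to 660 bp upstream of the Tnf start. No peak of either mark covered this product in any of the 6 lists. It lay between both marks in WT BMDM, 267 bp from the H3K27ac peak at the Tnf start and 444 bp from the H3K27me3 peak over Lta. The same distances were 667 bp and 844 bp in mdx BMDM. In mdxTLR4-/- BMDM the nearest H3K27ac peak was 6644 bp away and the nearest H3K27me3 peak 61044 bp away. The qPCR values were not analysed here.

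The WT, mdx and mdxTLR4-/- lists of H3K27me3 held 28143, 41780 and 36488 peaks, with a median density of 24.5, 28.3 and 23.7 reads per kb of peak. The H3K27ac lists were sparser, with 15665, 12076 and 12493 peaks and median densities of 7.00, 6.67 and 6.48 reads per kb. Reads outside peaks are not in the lists, so the depth of the libraries is unknown, and a missing peak says only that none was called. The label of macrophage was checked against 10 macrophage genes, of which 10 of 10 had an H3K27ac peak and 0 of 10 an H3K27me3 peak in each genotype. All 8 of 8 T cell genes held H3K27me3 in every genotype, and H3K27ac was found at 0, 1 and 1 of them in WT, mdx and mdxTLR4-/- BMDM. Of 6 neutrophil genes, 3, 4 and 2 held H3K27me3 and 0 held H3K27ac in any genotype. Of 6 B cell genes, 4 held H3K27me3 in each genotype and 2, 1 and 1 held H3K27ac, and of 6 fibroblast genes 5 held H3K27me3 in each genotype and 2, 2 and 3 held H3K27ac. Fewer held H3K27me3 over at least 50% of the window. These were 6, 5 and 4 T cell genes and 1, 2 and 1 neutrophil genes, with 3 B cell and 2 fibroblast genes in each genotype. Tlr4 had no H3K27me3 peak and had H3K27ac peaks in all genotypes, with 43 reads in 4 peaks in the mdxTLR4-/- list, so the peak lists do not by themselves show the deletion. Dmd, the dystrophin gene, had 1 H3K27me3 peak of 35 reads, in mdxTLR4-/- BMDM, and H3K27ac over at most 0.239% of its window.

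H3K27me3 was found at Tnf, Lta, Ltb, Tnfsf11, Tnfsf13b and Cd70 in WT BMDM, at the same 6 genes and Tnfsf15 in mdx BMDM, and at Tnfsf10, Tnfsf11, Tnfsf13b and Cd70 in mdxTLR4-/- BMDM. These are 6, 7 and 4 of 10 genes. A peak in the window was found for 38.4%, 41.3% and 39.0% of protein-coding genes, and for 27.9%, 30.7% and 28.3% of all annotated genes, in the same order. With 10 genes, a share of 4 in 10 is that of coding genes at large, and the 6 and 7 are 2 to 3 genes above it, of which Tnf and Lta share a single peak. The start of the gene itself was under H3K27me3 at Lta, Ltb, Tnfsf11 and Cd70 in WT and in mdx BMDM, and at Tnfsf11 and Cd70 in mdxTLR4-/- BMDM, which is 4, 4 and 2 of 10, beside 23.5%, 23.8% and 22.7% of coding genes.

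The Tnf, Lta and Ltb windows held H3K27me3 in WT and in mdx BMDM and none in mdxTLR4-/- BMDM. That pattern was found at 1.66% of coding genes, and the 3 genes of 10 lie within 1 locus and rest on 2 regions. No gene held H3K27me3 in WT and not in mdx BMDM (0 of 10, beside 1.92% of coding genes), and Tnfsf15 alone held it in mdx and not in WT BMDM (1 of 10, beside 4.82%). Between mdx and mdxTLR4-/- BMDM, 4 of 10 genes held it in mdx alone (4.31%) and 1 of 10, Tnfsf10, in mdxTLR4-/- alone (2.03%). Against WT, 3 of 10 held it in WT alone (2.91%) and 1 of 10 in mdxTLR4-/- alone (3.53%).

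H3K27ac was found at Tnf, Lta, Ltb, Tnfsf10 and Tnfsf13b in WT BMDM, at Tnf, Lta, Ltb and Tnfsf15 in mdx BMDM, and at Lta and Tnfsf10 in mdxTLR4-/- BMDM. These are 5, 4 and 2 of 10 genes, beside 39.9%, 34.5% and 36.5% of coding genes and 22.7%, 19.3% and 20.2% of all annotated genes. The mdxTLR4-/- list was made from 1 ChIP library and the others from 2, and the part of this in the lower count was not tested. Starts under H3K27ac were those of Tnf, Tnfsf10 and Tnfsf13b in WT, Tnfsf15 in mdx and Tnfsf10 in mdxTLR4-/- BMDM, 3, 1 and 1 of 10, beside 24.0%, 20.6% and 20.9%. In mdx BMDM the Tnf peak missed the start by 7 bp, less than the 200 bp grid of the calls. From WT to mdx BMDM, 1 of 10 genes had H3K27ac in mdx alone (4.61% of coding genes) and 2 of 10 in WT alone (9.94%). Against mdxTLR4-/- BMDM, 3 of 10 had it in WT alone (8.55%) and 0 of 10 in mdxTLR4-/- alone (5.23%), and 3 of 10 had it in mdx alone (6.19%) and 1 of 10 in mdxTLR4-/- alone (8.19%). Tnf and Ltb, 2 of 10, had it in WT and mdx and not in mdxTLR4-/- BMDM, a pattern of 3.21% of coding genes. At Ltb this rests on the window edge, which the peaks crossed by 362 bp in WT and 562 bp in mdx BMDM. The mdxTLR4-/- peak of 6 reads in the same region ended before the window. The same holds for Ltb in the counts of 3 of 10 above. Windows with both marks numbered 4, 4 and 1 of 10, beside 10.0%, 9.20% and 8.92% of coding genes. In WT and in mdx BMDM, Tnf, Lta and Ltb of a single locus were among the 4. Tnf and Lta shared an H3K27me3 peak, and in WT BMDM also an H3K27ac peak. A window with both marks need not hold them at the same place. Tnfsf9 and Tnfsf14 had no peak of either mark in any list.

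**Figure D1:**
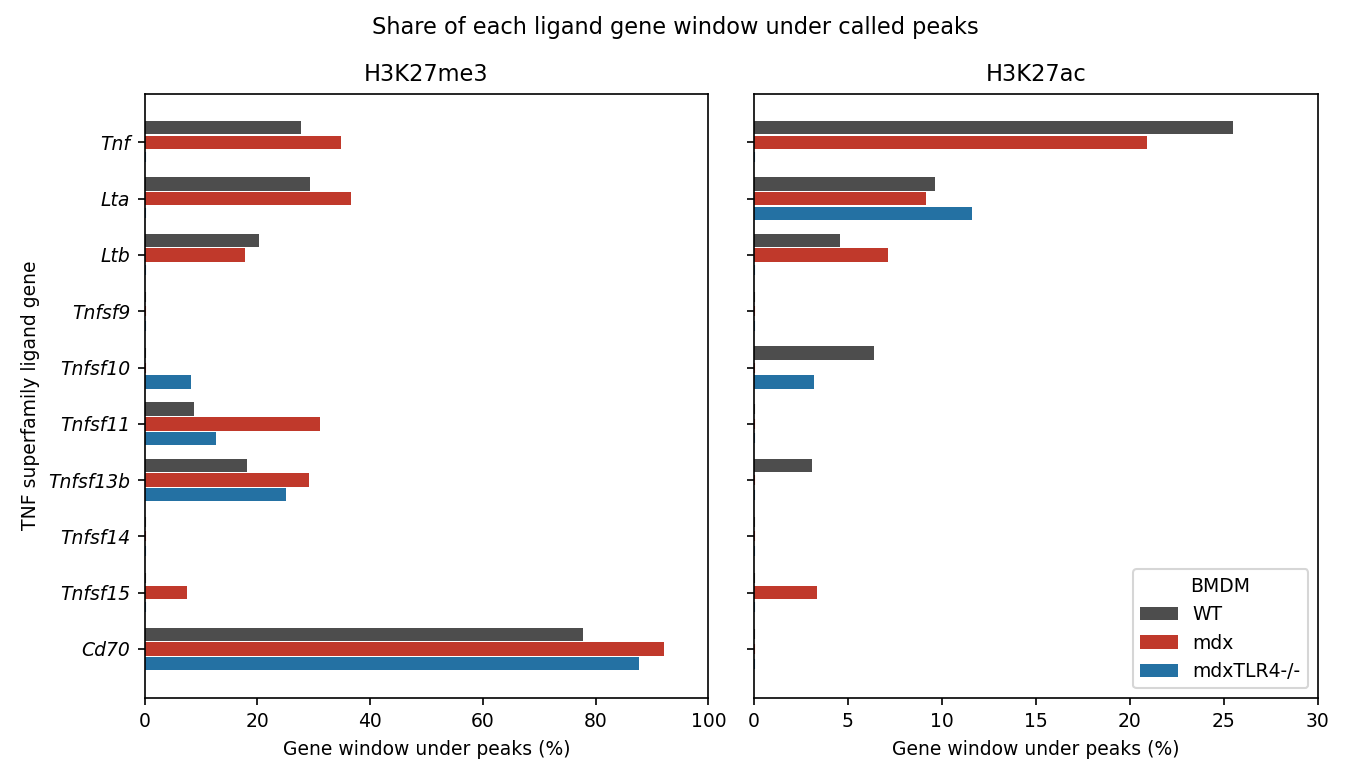
Percent of each gene window under H3K27me3 peaks (left) and H3K27ac peaks (right, on a shorter axis), with 1 bar per genotype and no bar where no peak was called. Cd70 stands out for H3K27me3 at 77.7%, 92.1% and 87.7%, and Tnf for H3K27ac at 25.5% in WT and 20.9% in mdx BMDM with none in mdxTLR4-/- BMDM. The percent also depends on window length, which is 8.63 kb at Tnf and 31.4 kb at Tnfsf10. In WT BMDM the H3K27ac peaks at Tnf and Tnfsf10 each hold 12 reads, and that at Tnfsf10 covers 6.37%.

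Tnf (ENSMUSG00000024401.14, chr17:35199381-35202007, minus strand) encodes the inflammatory cytokine that gives the family its name. Its start was acetylated in WT BMDM, where an H3K27ac peak of 12 reads (exact 95% Poisson interval 6.20 to 21.0, counting error only, as for all intervals here) ran from 393 bp upstream to 1806 bp inside the gene and touched all 4 exons. In mdx BMDM the peak held 9 reads (4.12 to 17.1) and stopped 7 bp short of the start. Called borders lie on a grid of 200 bp, so this gap is finer than the calls resolve. No peak was called there in mdxTLR4-/- BMDM. The densities of the called peaks, 5.45 and 5.00 reads per kb, were below the medians of their lists and did not differ beyond counting error, with an mdx over WT ratio of 0.917 (exact interval 0.341 to 2.37). In the mdxTLR4-/- list a peak of 2200 bp can hold as few as 5 reads, and 47.2% of the 627 peaks of that length held fewer than 12.

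Lta (ENSMUSG00000024402.5, chr17:35203165-35205351, minus strand) encodes lymphotoxin alpha and ends just upstream of Tnf. One H3K27me3 peak covered its start in WT BMDM, at chr17:35203201-35205600 with 60 reads (45.8 to 77.2), and touched all 4 exons. In mdx BMDM the peak lay at chr17:35203601-35206600 with 85 reads (67.9 to 105), shifted away from Tnf. This same peak is the H3K27me3 counted in the Tnf window, where it lay 1194 bp (WT) and 1594 bp (mdx) upstream of the Tnf start and did not enter the Tnf body. At 25.0 and 28.3 reads per kb it was of ordinary density, at percentile 53.0 and 49.7 of its list, and the ratio of mdx to WT was 1.13 (0.805 to 1.60). The median ratio over all 19700 regions shared by WT and mdx was 1.22, with quartiles of 1.11 and 1.34, so the ratio at Lta was that of the list as a whole.

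No H3K27me3 peak was called over Lta in mdxTLR4-/- BMDM. The mdxTLR4-/- list holds 1606 peaks of the length of the WT peak, the sparsest of them has 30 reads, and 79.4% have fewer than the 60 reads found in WT. Peaks as long as the mdx peak held at least 36 reads, and 88.5% had fewer than 85. Read counts like those of WT and mdx BMDM were thus within the range that this list reports, and the number of reads at Lta in mdxTLR4-/- BMDM is not in the data. These counts were compared unscaled. Over shared regions the median density ratio of mdxTLR4-/- BMDM was 0.959 to WT and 0.789 to mdx. Over the whole genome, 7.15% of 36336 H3K27me3 regions were called in WT and mdx and not in mdxTLR4-/- BMDM.

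An H3K27ac peak upstream of Lta was called in all 3 genotypes. The reads numbered 29 (19.4 to 41.6) for WT, 12 (6.20 to 21.0) for mdx and 18 (10.7 to 28.4) for mdxTLR4-/- BMDM, and the peak lay between 4050 and 6249 bp upstream of the Lta start. The densities were 16.1, 10.0 and 10.0 reads per kb, at percentiles 89.7, 73.9 and 76.3 of the lists, so this was the densest acetylation in the windows of the 10 genes. Its ratios to WT were 0.621 (0.288 to 1.25) in mdx and 0.621 (0.325 to 1.16) in mdxTLR4-/- BMDM, and neither interval leaves out 1. In mdxTLR4-/- BMDM this upstream peak was thus present while the one over the Tnf start was not called.

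Ltb (ENSMUSG00000024399.5, chr17:35194439-35196320, plus strand) encodes lymphotoxin beta, which anchors lymphotoxin alpha to the cell surface. H3K27me3 covered its start and the first 2 of its 3 exons in WT BMDM, at chr17:35193801-35195400 with 51 reads (38.0 to 67.1), and in mdx BMDM, at chr17:35194001-35195400 with 50 reads (37.1 to 65.9). Both peaks ended at the same position, and their densities of 31.9 and 35.7 reads per kb were in the upper part of their lists, at percentiles 79.1 and 77.8. The ratio of mdx to WT was 1.12 (0.743 to 1.69). None was called in mdxTLR4-/- BMDM, where 91.4% of the peaks of 1600 bp had fewer than 51 reads and the sparsest had 24. The H3K27ac peaks that reach the Ltb window, with 30 reads in WT and 16 in mdx BMDM, lay more than 4 kb upstream and covered the start of the neighbouring gene Lst1, whose body was also acetylated in mdxTLR4-/- BMDM, by a peak of 6 reads.

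**Figure D2:**
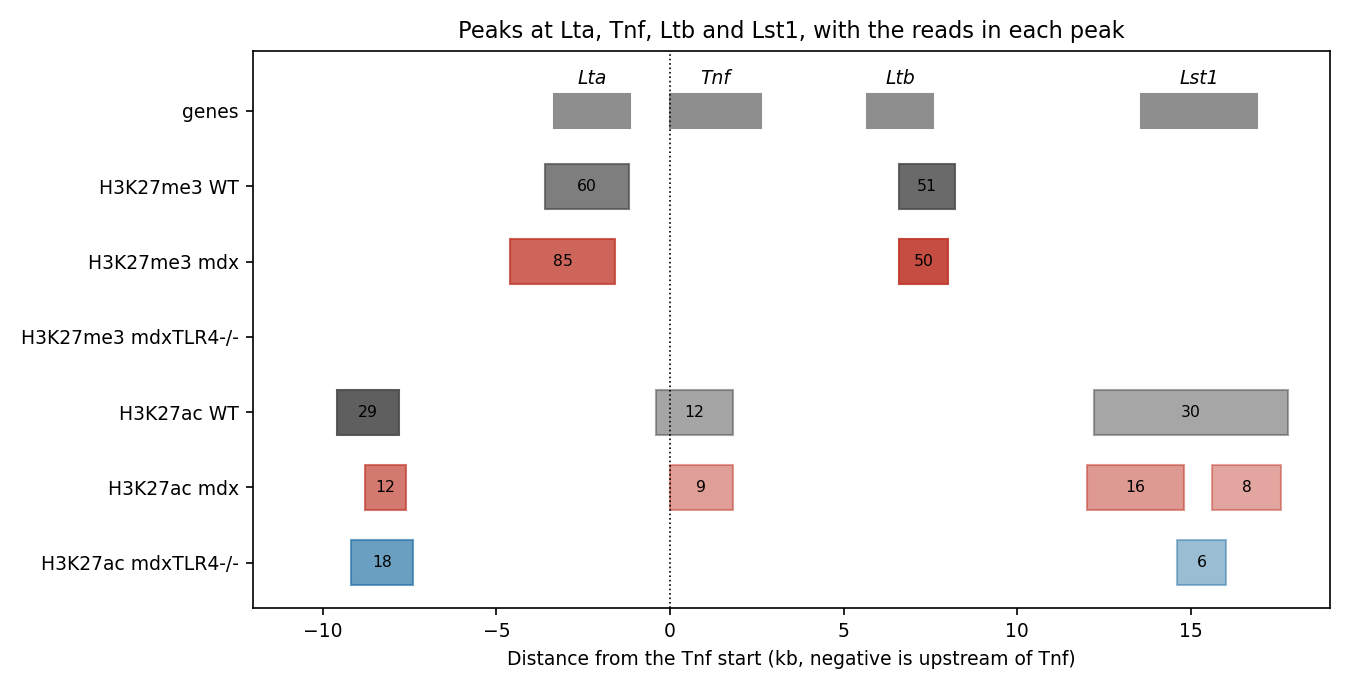
Map of the locus with distance from the Tnf start in kb on the x axis, gene bodies in the top row and called peaks of each mark and genotype below, each with its count of reads and shaded darker with more reads per kb within a mark. The H3K27me3 peaks over Lta (60 and 85 reads) and Ltb (51 and 50 reads) and the H3K27ac peak at the Tnf start (12 and 9 reads) are in the WT and mdx rows, and the mdxTLR4-/- rows hold H3K27ac at the 18-read peak upstream of Lta and at Lst1.

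Tnfsf11 (ENSMUSG00000022015.8, chr14:78277445-78308043, minus strand) encodes RANKL, which drives the formation of osteoclasts. Its start was under a dense H3K27me3 peak in all genotypes, with 191 reads (165 to 220) over 3200 bp in WT, 294 (261 to 330) over 4200 bp in mdx and 202 (175 to 232) over 4400 bp in mdxTLR4-/- BMDM. Each peak covered the promoter printed above, the first exon and part of the first intron. At 59.7, 70.0 and 45.9 reads per kb these peaks were at percentiles 98.8, 99.0 and 94.7 of their lists, so among the densest of each. No H3K27ac peak was called in the window of Tnfsf11 in any genotype.

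The density at the Tnfsf11 start was lowest in mdxTLR4-/- BMDM, with a ratio of 0.656 (0.546 to 0.787) to mdx and 0.769 (0.628 to 0.942) to WT, while mdx over WT was 1.17 (0.974 to 1.41). The median ratio over shared regions was itself below 1, at 0.789 (quartiles 0.711 and 0.875) to mdx and 0.959 (0.874 and 1.06) to WT. Against that background the start of Tnfsf11 was at percentile 13.0 and 8.45 of shared regions. Scaled to 1000000 reads in peaks, the ratios were 0.909 to mdx and 0.871 to WT. In mdx BMDM, 4 further H3K27me3 peaks of 33 to 71 reads lay in the window, at 19.7 to 33.8 reads per kb, so that coverage was 8.74%, 31.1% and 12.7% for WT, mdx and mdxTLR4-/- BMDM. With equal numbers of the densest peaks per list it was 8.74%, 12.4% and 12.0%, and mdx no longer stood apart from mdxTLR4-/- BMDM. The number was that of the smallest list, WT with 28143 peaks, so the WT list was kept whole. Of these 4, the 1 upstream of the gene had a counterpart of 31 reads in mdxTLR4-/- BMDM and none had one in WT BMDM. The mdx peak of 1400 bp held 33 reads, fewer than the 37 of the sparsest WT peak of that length. The other 3, with 54, 64 and 71 reads, were within the range of the WT list, where 76.1%, 42.7% and 28.8% of peaks of the same length held fewer.

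Tnfsf13b (ENSMUSG00000031497.9, chr8:10006467-10039072, plus strand) encodes BAFF, the B cell survival factor that myeloid cells secrete. An H3K27me3 peak lay upstream of it in all genotypes and left the start free. It held 89 reads (71.5 to 110) in WT, 71 (55.5 to 89.6) in mdx and 91 (73.3 to 112) in mdxTLR4-/- BMDM, and ended 1067, 2067 and 467 bp before the start. The densities of 23.4, 25.4 and 20.7 reads per kb did not differ beyond counting error, with ratios of 1.08 (0.781 to 1.50) for mdx over WT and 0.883 (0.652 to 1.20) for mdxTLR4-/- over WT. The start itself was acetylated in WT BMDM alone, by a peak of 8 reads (3.45 to 15.8), and 30.0% of mdx peaks and 58.1% of mdxTLR4-/- peaks of that length held fewer than 8.

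Inside Tnfsf13b, H3K27me3 was called at 1 mostly intronic site in all genotypes, 8534 to 10133 bp past the start in mdx and mdxTLR4-/- BMDM and from 6934 bp in WT BMDM. It held 67 reads over 3200 bp in WT, 59 over 1600 bp in mdx and 38 over 1600 bp in mdxTLR4-/- BMDM. The density in mdx BMDM was 1.76 times that of WT (1.22 to 2.54), at percentile 98.0 of shared regions, and the ratio of mdxTLR4-/- to mdx was 0.644 (0.417 to 0.985). The WT peak was the longer one, and its part in the first ratio was not tested. Near the end of the gene, 2 further regions were called in both mdx and mdxTLR4-/- BMDM and not in WT BMDM, and mdx BMDM had 2 more inside the gene, so the window held 2, 6 and 4 peaks and was covered over 18.1%, 29.2% and 25.1%. With equal numbers of the densest peaks per list the coverage was 18.1%, 10.0% and 15.5%. The WT list was kept whole in this cut, so only the mdx and mdxTLR4-/- coverage could fall. The cut therefore cannot decide where WT BMDM stands in the order of the genotypes.

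Tnfsf10 (ENSMUSG00000039304.11, chr3:27317028-27342427, plus strand) encodes TRAIL, which kills cells through death receptors. Its start was acetylated in WT BMDM by a peak of 12 reads (6.20 to 21.0) and in mdxTLR4-/- BMDM by a peak of 5 reads (1.62 to 11.7), and no peak was called in mdx BMDM. The densities were 6.00 and 5.00 reads per kb, with a ratio of 0.833 (0.230 to 2.54). A peak as short as the mdxTLR4-/- peak needed at least 6 reads in the mdx list, so 5 reads there would not have been listed, while 53.6% of mdx peaks as long as the WT peak had fewer than 12 reads. H3K27me3 at Tnfsf10 was called in mdxTLR4-/- BMDM alone, with 41 reads (29.4 to 55.6) at chr3:27327001-27329600, and 2557 of its 2600 bp were intronic. At 15.8 reads per kb it was at percentile 4.13 of its list, and every WT peak of this length had at least 47 reads, so a peak this sparse was below what the WT list reports. In mdx BMDM the sparsest peak of this length had 39 reads. With equal numbers of the densest peaks per list this H3K27me3 peak was not kept.

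Tnfsf15 (ENSMUSG00000050395.8, chr4:63727084-63745113, minus strand) encodes TL1A, a costimulator of T cells. It held both marks in mdx BMDM and neither in the other genotypes. The H3K27ac peak covered the start with 7 reads (2.81 to 14.4), and the H3K27me3 peak lay 1713 to 3512 bp inside the gene, in an intron, with 40 reads (28.6 to 54.5). The H3K27me3 peak was sparse, at percentile 13.2 of its list, and no WT peak of this length had fewer than 40 reads. In mdxTLR4-/- BMDM, 50.1% of peaks of this length had fewer. This H3K27me3 peak too was not kept with equal numbers of peaks per list.

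Cd70 (ENSMUSG00000019489.7, chr17:57145997-57149777, minus strand) encodes CD70, the costimulatory ligand of CD27. It was the one gene of the 10 with at least 50% of its window under H3K27me3 (1 of 10 in each genotype, beside 16.6%, 16.3% and 14.9% of coding genes and 14.4%, 14.2% and 12.5% of all annotated genes). A single broad peak covered the start, all 3 exons and both introns in each genotype, with 821 reads (766 to 879) over 18400 bp in WT, 827 (772 to 885) over 14000 bp in mdx and 936 (877 to 998) over 25200 bp in mdxTLR4-/- BMDM. The peak was thus longest and thinnest in mdxTLR4-/- BMDM, at 37.1 reads per kb, and shortest and densest in mdx BMDM, at 59.1, with 44.6 in WT. No H3K27ac peak was called in the Cd70 window, nor on the map between Tnfsf14 and Tnfsf9.

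The called borders of the Cd70 domain differ between lists, and over all peaks merged into a region of 27000 bp the differences were smaller. This region held 949 reads in 2 peaks in WT, 1167 in 3 peaks in mdx and 936 in 1 peak in mdxTLR4-/- BMDM, which is 40.2, 47.4 and 37.1 reads per kb of the 23600, 24600 and 25200 bp called. The ratio of mdx to WT was 1.18 (1.08 to 1.29) and that of mdxTLR4-/- to mdx 0.783 (0.718 to 0.854), both close to the medians over all shared regions of 1.22 and 0.789. Scaled to 1000000 reads in peaks the ratios were 0.964 and 1.09, so their direction depends on the scaling. A second region upstream, chr17:57154001-57161800, reached into the Cd70 window in mdxTLR4-/- BMDM and went the other way. It held 123, 127 and 110 reads at 21.2, 26.5 and 28.9 reads per kb, with a ratio of mdxTLR4-/- to WT of 1.36 (1.05 to 1.78, percentile 96.3 of shared regions) and to mdx of 1.09 (0.840 to 1.42, percentile 95.1). The reads lay in 5800, 4800 and 3800 called bp in WT, mdx and mdxTLR4-/- BMDM. The part of called length in these ratios was not tested. Tnfsf9 (ENSMUSG00000035678.8, chr17:57105325-57107757), the ligand of a costimulatory receptor of T cells, and Tnfsf14 (ENSMUSG00000005824.7, chr17:57189492-57194177), which encodes LIGHT, flank Cd70 and had neither mark. For H3K27me3, no peak in any genotype was the state of 2 of 10 genes and of 55.5% of coding genes, and for H3K27ac of 4 of 10 and 51.9%.

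**Figure D3:**
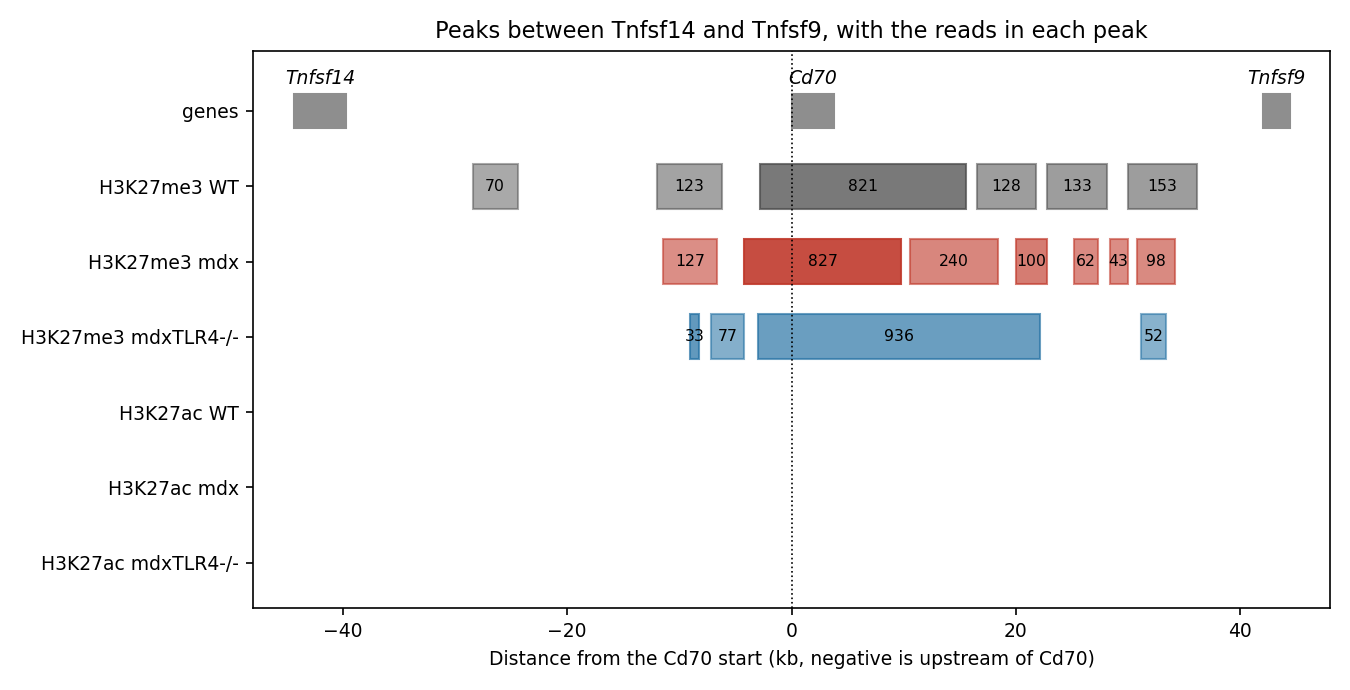
Map of the locus with distance from the Cd70 start in kb on the x axis and called peaks of each mark and genotype with their reads, shaded darker with more reads per kb. H3K27me3 covers Cd70 in all genotypes (821, 827 and 936 reads in the main peak), breaks off before Tnfsf14 and Tnfsf9, and the H3K27ac rows are empty.

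**Figure D4:**
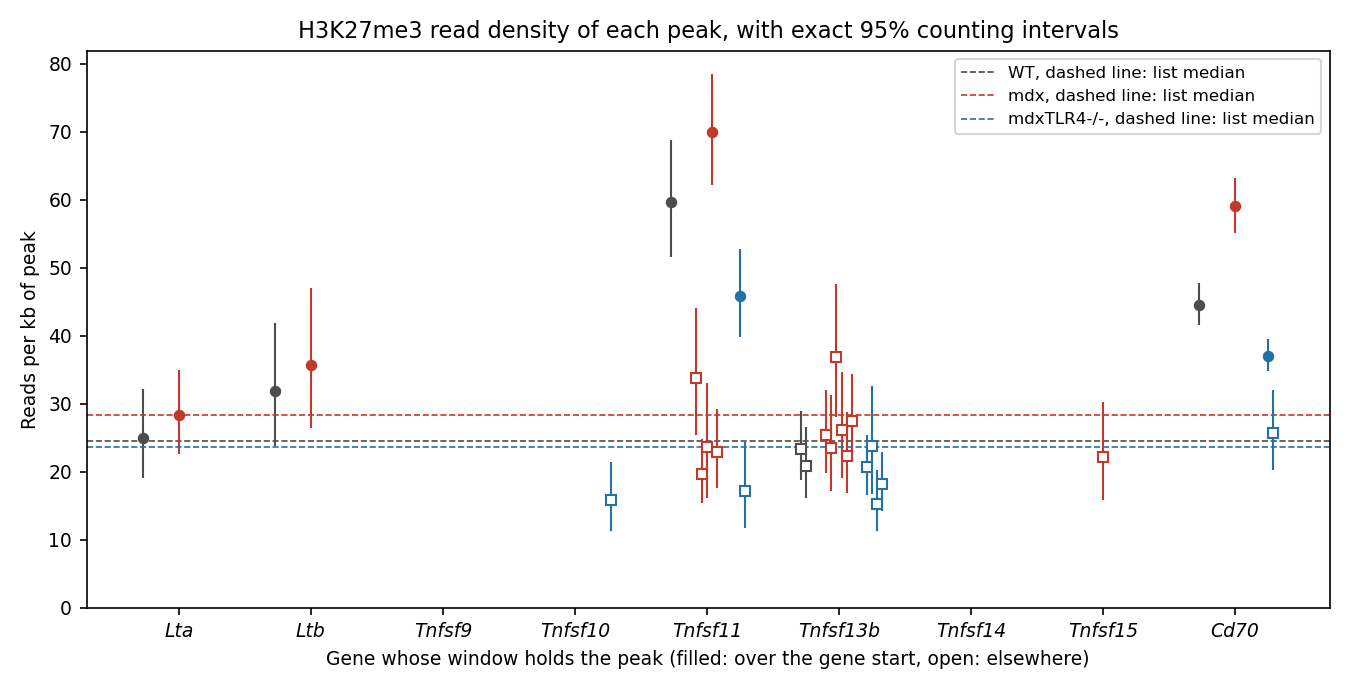
H3K27me3 reads per kb of each peak (points) with exact 95% Poisson intervals (bars), by gene and genotype, with the median of each list as a dashed line; the peak plotted at Lta is also the one in the Tnf window. Peaks over the starts of Tnfsf11 (59.7, 70.0 and 45.9) and Cd70 (44.6, 59.1 and 37.1) lie above the medians, and those of Lta and of Tnfsf13b lie near or below them, with the exception of the 36.9 peak in mdx BMDM.

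The H3K27me3 peaks also differed in base composition, a feature the choice of genes did not use. CpG dinucleotides numbered 19.6 per kb in the WT peak over Lta, 23.8 in that over Ltb and 30.0 in that over Tnfsf11, at percentiles 90.9, 95.1 and 97.5 of the WT list, whose median was 11.2. The Cd70 peak, with 10.5 per kb, was at percentile 43.3. Peaks away from starts varied as widely, with 9.74 and 6.25 per kb at Tnfsf13b in WT BMDM, and 26.2, 22.1, 14.4 and 8.57 at Tnfsf11 in mdx BMDM. Under H3K27ac, the peak at the Tnf start had 23.2 CpG per kb and that at Tnfsf10 7.00, at percentiles 64.7 and 16.3 of the WT H3K27ac list.

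The other genes of the pathway were taken from lists of receptors, further ligands and signalling proteins. For comparison, 38.4%, 41.3% and 39.0% of coding genes held H3K27me3 in the window in WT, mdx and mdxTLR4-/- BMDM. At least 50% of the window was covered in 16.6%, 16.3% and 14.9% of coding genes, and H3K27ac was found at 39.9%, 34.5% and 36.5%. Of 13 receptors, 5, 6 and 5 held H3K27me3 in WT, mdx and mdxTLR4-/- BMDM, and the same 3 held it over at least 50% of the window in each. Tnfrsf13c, the BAFF receptor, was covered over 100%, 90.7% and 79.5%, Tnfrsf25, the receptor of TL1A, over 100%, 93.5% and 100%, and Tnfrsf9, the receptor of the Tnfsf9 product, over 70.1%, 71.7% and 64.7%. So Tnfsf9 was free of H3K27me3 while most of its receptor gene was covered, and both Cd70 and these receptors were covered in every genotype. Coverage also differed most between genotypes at Tnfrsf10b, a TRAIL receptor, with 11.9%, 26.7% and 6.67%, and at Tnfrsf13b, which binds BAFF, with 0%, 14.7% and 5.59%. H3K27ac was found at 8, 6 and 8 of the 13 receptors.

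Of 8 further ligands, 2 held H3K27me3 in each genotype, Tnfsf4, which encodes OX40 ligand, over 66.9%, 63.4% and 43.4%, and Eda, the ectodysplasin gene, over less than 1% of its window. Tnfsf8 and 5 others held none. H3K27ac was found at 4, 4 and 3 of the 8. Of 16 signalling genes, 5, 4 and 4 held H3K27me3, with Traf1 at 49.4%, 52.5% and 44.8%, Fadd at 37.2%, 31.1% and 29.3% and Tradd at 16.3%, 4.94% and 13.1%, all 3 of them adaptors of TNF receptors. H3K27ac was found at 12, 14 and 14 of the 16 and at 5, 4 and 2 of the 10 ligands, beside 39.9%, 34.5% and 36.5% of coding genes. The median share of the window under H3K27me3 was 13.4%, 23.5% and 0% for the 10 ligands and 0% for coding genes in each genotype. The means were 18.2%, 24.9% and 13.4% for the ligands beside 17.6%, 17.4% and 16.0% for coding genes, so in WT BMDM they were nearly equal and in mdxTLR4-/- BMDM the ligands were lower.

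**Figure D5:**
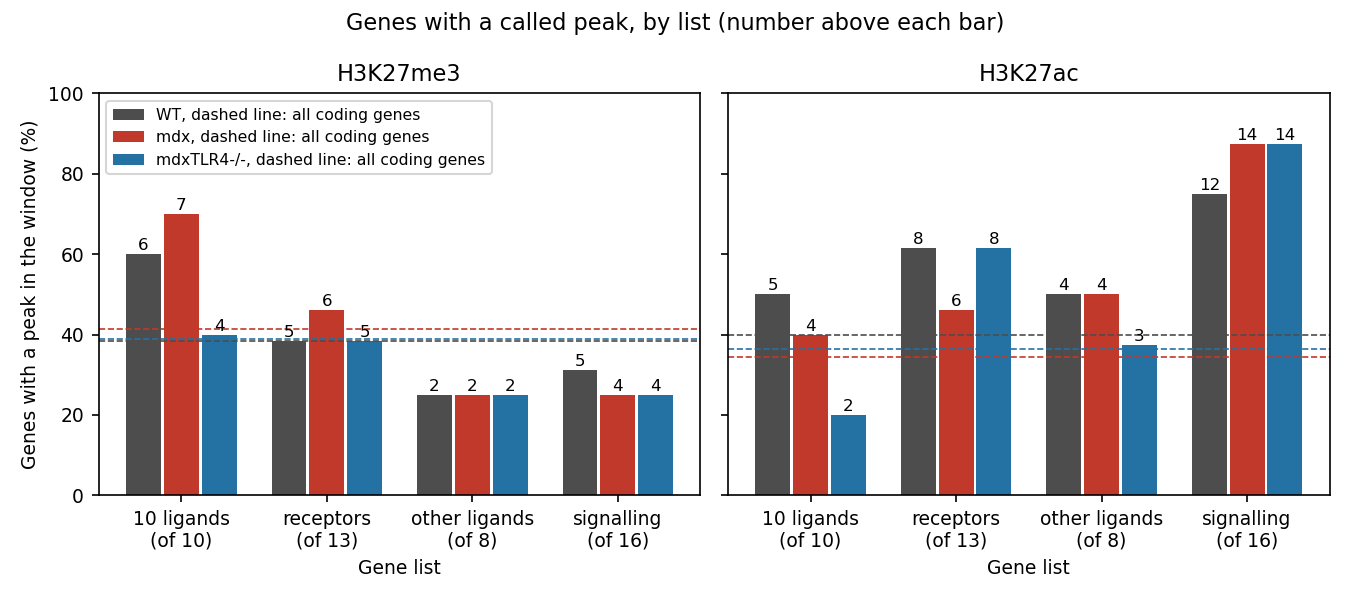
Percent of genes with a peak in the window for the 10 ligands, 13 receptors, 8 further ligands and 16 signalling genes, by mark and genotype, with the count above each bar and the share of all coding genes as dashed lines. The ligands go from 6 and 7 genes with H3K27me3 to 4 and from 5 and 4 with H3K27ac to 2 in mdxTLR4-/- BMDM, while the signalling genes hold H3K27ac at 12, 14 and 14.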

How the data were processed

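The 6 deposited lists hold H3K27me3 and H3K27ac peaks of WT, mdx and mdxTLR4-/- BMDM. Per the methods of the study, the ChIP was native, on chromatin cut by micrococcal nuclease. The authors mapped reads with Bowtie2 to mm10, merged replicates and called peaks with SICER2 (window 200 bp, gap 600 bp, FDR 0.01). The submitters' processing notes name CASAVA 1.8, cutadapt 1.15, Bowtie2 2.3.4 and SICER 2.0. The deposited value of a peak is the authors' raw count of its ChIP reads, with no scaling for depth or length and no input subtracted. Duplicate removal is not given in the sources used here. The label mTLR4 was read as mdxTLR4-/-.

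A peak counted with 1 bp in the window, and density is reads per kb of peak. Reads of peaks of equal length were compared between lists without scaling. Peaks of any genotype that overlap were merged into regions, and density ratios were taken where both lists held a peak. Intervals are at the 95% level, exact Poisson for reads and Clopper-Pearson for ratios, and cover counting error only. Gene models were GENCODE vM21 without the mitochondrial genes, and sequence was GRCm38.p6. The genes named were the 10 ligands, coding genes that share a peak with them, Tlr4, Dmd, and in each pathway list the 3 genes with the largest WT H3K27me3 coverage and the 3 with the largest difference between genotypes. The members and lists were chosen with earlier results of these data known. The procedure was tested on simulated lists. Alternatives were other windows, overlaps, coverage minimums, stricter peaks and 3 scalings. Input libraries were not used here. Scripts ran in Python 3.11.15 with pandas 2.3.3, scipy 1.17.1, matplotlib 3.10.9 and numpy 2.4.6.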

Additional observations from a re-analysis of the deposited data

How the results depend on the processing

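No paired analysis was possible because the replicates were merged before peaks were called, and for the same reason no replicate could be left out. Counts of genes with an H3K27me3 peak (6, 7 and 4 in WT, mdx and mdxTLR4-/- BMDM) stayed within 1.5 times under all 6 alternatives, although Ltb had none with peaks of at least 2 kb, and Tnf had none in the gene body alone. Using equal numbers of the densest peaks per list, or a density of at least 1.5 times the 1st percentile, left out Tnfsf15 in mdx and Tnfsf10 in mdxTLR4-/- BMDM. Equal numbers also lowered H3K27me3 coverage in mdx BMDM from 31.1% to 12.4% at Tnfsf11 and from 29.2% to 10.0% at Tnfsf13b. The WT list of H3K27me3 was the smallest and lost no peak in this cut. For H3K27ac (5, 4 and 2), the gene body alone gave 3, 2 and 1, and at least 1 kb of the window under peaks gave 3, 1 and 1. The peaks in the Lta and Ltb windows lay outside the gene bodies. They covered 787, 751 and 951 bp of the Lta window in WT, mdx and mdxTLR4-/- BMDM. At Ltb they covered 362 and 562 bp in WT and mdx BMDM, and at Tnfsf15 the peak covered 800 bp in mdx BMDM. Genes with at least 50% of the window under H3K27me3 (1, 1 and 1) numbered 4, 5 and 2 with a minimum of 20%, and 3, 3 and 1 in the gene body alone, where Lta and Ltb joined Cd70 in WT and mdx BMDM. Of 84 density ratios under another scaling, 71 stayed within the counting interval, 11 moved out of it on the same side of 1 or with an interval that included 1, and 2 whose interval left out 1 changed direction, both at Cd70 per 1000000 reads in peaks, to 0.964 for mdx over WT and to 1.09 for mdxTLR4-/- over mdx. In all, 22 of the 84 lay on the other side of 1, and 14 of these were per 1000000 reads in peaks. With 5 to 30 reads in the H3K27ac peaks, ratios at these genes had intervals that all included 1.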

Other observations

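Of the 8 further ligands, 3 held H3K27ac in every genotype, namely Tnfsf18 and the adjoining genes Tnfsf12 and Tnfsf13, which encode TWEAK and APRIL. Tnfsf12 and Tnfsf13 were singled out after their values were seen. H3K27ac peaks covered 8.66%, 21.8% and 29.2% of the Tnfsf12 window in WT, mdx and mdxTLR4-/- BMDM, with 15, 20 and 29 reads, and 26.8%, 35.1% and 55.8% of the Tnfsf13 window, with 15, 26 and 29 reads. At both genes the order of the genotypes was the reverse of that at Tnf, where coverage was 25.5%, 20.9% and 0%. Tnfsf18 did not follow that reverse order, with coverage of 12.0%, 13.2% and 9.62% and 17, 10 and 14 reads. The windows of Tnfsf12 and Tnfsf13 overlap and share most of their peaks, so the reads are not independent between them. No difference was tested.

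Past Ltb, on the side away from Tnf, the macrophage genes Lst1 and Aif1 were acetylated in all genotypes and held no H3K27me3 peak. The Aif1 peak had 21, 19 and 10 reads for WT, mdx and mdxTLR4-/- BMDM, at 7.50, 5.94 and 5.00 reads per kb, so the WT and mdx H3K27me3 peaks at Lta and Ltb lay between acetylated regions.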
